A study of Homo sapiens with 4 samples.

Results

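Genes of TGF-beta, activin and BMP signalling were compared between TMEM9 KD cells and wild-type (WT) cells. The members are 45 listed genes (10 ligands, 4 latent binding proteins, 10 receptors, 7 SMADs, 4 extracellular antagonists, 5 intracellular or membrane inhibitors, 4 ID targets and the matrix target TGFBI), found by symbol among the 48162 genes of the count table. All 45 matched 1 row each. RNA was sequenced from 2 TMEM9 KD libraries and 2 WT libraries, all labelled as MDA-MB-453, a line of human breast cancer. TMEM9 encodes a membrane protein of endosomes and lysosomes. How it was reduced, whether the KD cells were a clone or a pool, and whether WT cells received a control construct are not stated in any source at hand. The labels do not say whether libraries within a group are separate cultures, so the p-values reflect the spread among 4 libraries, and that spread may be technical.

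Ligands of this family bind pairs of type I and type II receptor kinases on the cell surface. TGF-beta and activin receptors phosphorylate SMAD2 and SMAD3, BMP receptors phosphorylate SMAD1, SMAD5 and SMAD9, and both classes join SMAD4 to act on genes in the nucleus. Secreted antagonists hold ligands away from receptors, latent binding proteins tether TGF-beta in the matrix, and the ID genes are well-known early targets of BMP signalling. In breast epithelium TGF-beta is known to restrain growth and, in tumour cells, to accompany mesenchymal features.

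Totals ran from 15960941 to 17065126 counts in the TMEM9 KD libraries and from 15323843 to 18517337 in the WT libraries. TMEM9 itself had 51 and 78 counts in TMEM9 KD libraries, against 1120 and 1497 in WT libraries (log2 fold change -4.37, SE 0.126, edgeR adjusted p = 4.12e-52). The labelled line was checked against 15 markers of MDA-MB-453 and luminal apocrine cells, and the data go against the label in part. ERBB2 averaged 54.4 CPM in TMEM9 KD and 63.7 CPM in WT. The luminal genes CDH1, EPCAM, KRT19, SPDEF and TFAP2B had between 0 and 9 counts in every library, and PIP had 0 in all 4. The mesenchymal gene VIM averaged 1796 CPM in TMEM9 KD and 1350 CPM in WT. The 15 luminal markers summed to 894 and 900 CPM in TMEM9 KD, against 770 and 785.5 CPM in WT, with 4 of 9 tested members higher and 3 lower. ALCAM alone averaged 184 CPM in TMEM9 KD and 44.3 CPM in WT. Summed levels of 15 mesenchymal and fibroblast markers were 5663 and 5909 CPM in TMEM9 KD, against 9313 and 9460 CPM in WT, with 7 of 14 tested members higher and 7 lower. The lower sum lay mainly in FN1 (mean 1737 CPM in TMEM9 KD, 4905 CPM in WT) and COL3A1 (31.1 and 957 CPM). COL1A1 went the other way (1387 and 824 CPM). FN1, COL3A1, COL1A1 and COL1A2 are also among the TGF-beta targets below, so these values enter both. Summed levels of 10 basal epithelial markers were 806 and 819 CPM in TMEM9 KD, against 1198 and 1213 CPM in WT. Of these 10, 9 were lower, and KRT5 and KRT14 were at 0 in both TMEM9 KD libraries, against 185 and 307 counts of KRT14 in WT libraries. EGFR was not called, with a mean of 256.5 CPM in TMEM9 KD and 257.2 CPM in WT. Markers were called by the rule given below, which over all genes called 28.7% higher and 29.0% lower. Leukocyte markers summed to 5.68 and 6.53 CPM in TMEM9 KD, against 8.70 and 11.3 CPM in WT, with CD3E and LYZ at 0 in every library. Endothelial markers summed to at most 1.49 CPM in any library. No source at hand states whether TMEM9 KD and WT cells came from the same parental cells, and the reduction of TMEM9 and any other difference between the 2 cell populations cannot be told apart. The part of these marker differences in the results below was not tested, and in bulk RNA fewer cells of a type and less RNA per cell cannot be told apart.

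Among the members, the antagonists NOG, FST and FSTL3 were higher and ID genes were lower in TMEM9 KD. NOG, FST and FSTL3, the 3 members of that role with enough counts to test, rose by log2 fold changes of 1.84 to 2.69. Of 6 extracellular antagonists tested outside the member list, 1 was higher and 4 were lower, with SOST at -3.01. Over all genes tested, 57.7% were called in either direction. ID1, ID2 and ID3, all of the testable ID genes, fell, with log2 fold changes of -1.79 to -0.80. Ligands, latent binding proteins and inhibitors went both ways, receptors were mostly lower by less than 2-fold apart from a higher BMPR1B, and the 7 member SMADs lay between -0.23 and 0.30, while SMAD9, outside the member list, was at -1.76. Levels are CPM, counts per 1000000 counts of a library after scaling with TMM factors, and log2 fold changes are of TMEM9 KD over WT.

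Of the 45 members, 42 passed the filter on low counts and were tested. The members were chosen with earlier results of these data known, so the shares below are descriptive only. By edgeR's quasi-likelihood test with Benjamini-Hochberg adjustment over all 14923 genes tested and a threshold of 0.05, 14 were higher and 18 lower, 76.2% of those tested. Over all genes the same rule called 57.7% (28.7% higher, 29.0% lower), so calls were frequent everywhere. A separate fit and adjustment over the 10822 genes averaging 5 CPM or more called 63.4% of them, and 30 of the 39 members at that level. TMEM9 KD and WT libraries were fully separated in 37 tested members, or 88.1%, against 77.6% of all genes. A call with a change of at least 2-fold was made for 9 members (5 higher, 4 lower), or 21.4%, against 17.4% of all genes (7.24% higher, 10.1% lower). The median log2 fold change was -0.08 over the members and 0.01 over all genes, and the median absolute change was 0.51 and 0.38. Tested against a 1.5-fold change, 5 members stayed called higher (LTBP1, BMPR1B, FST, FSTL3 and NOG) and 7 lower (BMP7, GDF15, LTBP3, TGFBR2, ID1, ID2 and ID3). The other 20 calls ended in that test. The call of each of those 12 also held in all other alternatives that tested it.

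**Figure D1:**
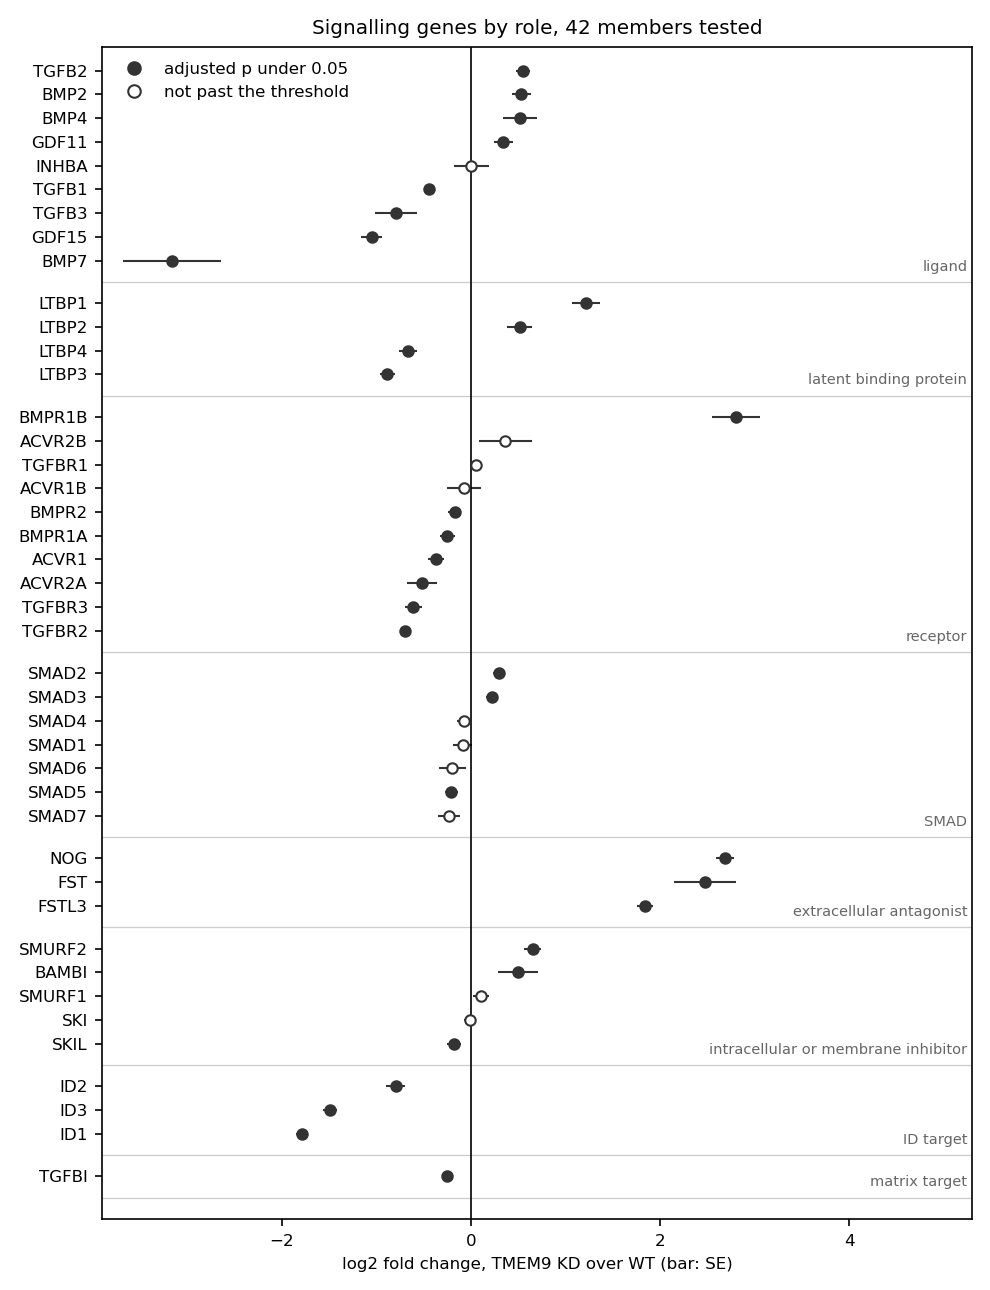
Log2 fold change of TMEM9 KD over WT (x axis, bars are SE) for each of the 42 tested members, grouped by role and ordered within a role. Filled points passed an adjusted p of 0.05. The 3 antagonists lie between 1.84 and 2.69, the 3 ID genes between -1.79 and -0.80, and the SMADs between -0.23 and 0.30.

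Among the TGF-beta ligands, TGFB2 was higher while TGFB1 and TGFB3 were lower. TGFB1, the main TGF-beta of epithelial tumours, had 177 and 192 CPM in TMEM9 KD libraries, against 249 and 253 CPM in WT libraries (log2 fold change -0.44). Its exons share 215 bases with HNRNPUL1 on the other strand, and no source at hand states whether counting used strand. TGFB2 had 91.1 and 89.8 CPM in TMEM9 KD, against 62.7 and 60.6 CPM in WT (log2 fold change 0.55). TGFB3 had 3.54 and 4.13 CPM in TMEM9 KD, against 5.22 and 7.96 CPM in WT (-0.79), the WT libraries lying further apart than those of TMEM9 KD. Its call ended under DESeq2 (adjusted p = 0.0701) and without WT replicate 2, when the log2 fold change was -0.45 (edgeR adjusted p = 0.225). For all 3 ligands both TMEM9 KD libraries lay on 1 side of both WT libraries.

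BMP ligands moved in opposite directions. BMP7 had 2 and 7 counts in TMEM9 KD libraries, against 40 and 40 in WT libraries, which is 0.122 and 0.401 CPM against 2.68 and 2.23 CPM. It fell by 3.16 on the log2 scale (SE 0.519, edgeR adjusted p = 1.25e-07), the largest decrease among the 42 tested members, from a low level. BMP2, which acts on BMP receptors in many tissues, had 37.1 and 41.7 CPM in TMEM9 KD, against 27.2 and 27.4 CPM in WT (log2 fold change 0.53). BMP4, a close relative of BMP2, had 9.10 and 8.59 CPM in TMEM9 KD, against 6.02 and 6.29 CPM in WT (0.52). The call of BMP4 ended under DESeq2 (adjusted p = 0.148) and without WT replicate 1 (edgeR adjusted p = 0.0716, value 0.49).

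The activin and GDF ligands also differed among themselves. GDF15, a stress-induced cytokine that is a distant member of the family, had 17.2 and 19.3 CPM in TMEM9 KD, against 37.7 and 38.1 CPM in WT (log2 fold change -1.05, SE 0.108, edgeR adjusted p = 7.86e-15). GDF11, a ligand that signals through activin receptors, had 37.3 and 37.5 CPM in TMEM9 KD, against 32.1 and 27.1 CPM in WT (0.34). GDF11 shares 386 bases of exon with SARNP on the other strand. Its call ended under DESeq2 (adjusted p = 0.0563) and without WT replicate 2, when the log2 fold change was 0.22 (edgeR adjusted p = 0.207). INHBA, the subunit that forms activin A, had 7.15 and 7.28 CPM in TMEM9 KD and 6.96 and 7.40 CPM in WT, with overlapping groups and a log2 fold change of 0.00 (SE 0.183). The sign of INHBA changed in several alternatives. INHBB, another activin subunit, had 2 and 3 counts in TMEM9 KD and 1 and 0 in WT, too few to test.

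Latent binding proteins, which hold newly made TGF-beta in the matrix in an inactive form, split evenly, and all 4 passed the threshold. Over all genes 57.7% passed it. LTBP1 had 18.4 and 16.8 CPM in TMEM9 KD, against 8.03 and 7.12 CPM in WT (log2 fold change 1.22, SE 0.15, edgeR adjusted p = 1.73e-11). LTBP2, which does not bind latent TGF-beta itself, had 17.2 and 18.9 CPM in TMEM9 KD, against 13.5 and 11.9 CPM in WT (0.51). LTBP1 and LTBP2 were thus higher in both TMEM9 KD libraries than in either WT library. LTBP3 had 51.4 and 55.2 CPM in TMEM9 KD, against 98.2 and 98.6 CPM in WT, a log2 fold change of -0.88. LTBP4, which binds TGFB1 only, had 28.2 and 32.0 CPM in TMEM9 KD, against 50.3 and 45.2 CPM in WT (-0.66). LTBP3 and LTBP4 were lower in both TMEM9 KD libraries than in either WT library.

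Of 10 receptors tested, 6 were lower and 1 higher, or 70.0% called, against 57.7% of all genes. TGFBR2, the type II receptor that binds TGF-beta, had 465 and 462 CPM in TMEM9 KD, against 748 and 750 CPM in WT (log2 fold change -0.69, SE 0.0527). Its partner TGFBR1, the type I receptor, had 234.5 and 205.5 CPM in TMEM9 KD and 209 and 215 CPM in WT. The TGFBR1 groups overlapped, with a log2 fold change of 0.05. Its sign turned to -0.04 without TMEM9_KD replicate 1, and without TMEM9_KD replicate 2 it was called higher at 0.14 (edgeR adjusted p = 0.00488). TGFBR3, or betaglycan, a co-receptor that presents TGFB2, had 33.3 and 36.1 CPM in TMEM9 KD, against 54.0 and 52.0 CPM in WT (-0.61). TGFBR2 and TGFBR3 were thus lower by similar amounts, in every TMEM9 KD library.

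Receptors of activins and BMPs were mostly lower by small amounts, except for BMPR1B. BMPR1B, a type I receptor for BMPs, had 9.65 and 9.11 CPM in TMEM9 KD, against 1.41 and 1.28 CPM in WT. Its log2 fold change of 2.80 (SE 0.251, edgeR adjusted p = 1.14e-17) was the largest increase among the tested members, and corresponds to 6.99 times the WT mean. BMPR1A, another type I receptor of BMPs, had 56.6 and 54.2 CPM in TMEM9 KD, against 68.1 and 63.8 CPM in WT (-0.25). BMPR2, a type II receptor of BMPs, had 90.1 and 89.9 CPM in TMEM9 KD, against 107.7 and 95.4 CPM in WT (-0.17). BMPR1A and BMPR2 did not overlap between the groups, but both calls ended in some alternatives. The BMPR1A call ended with scaling by library size only (edgeR adjusted p = 0.0521) and without WT replicate 1 (0.148, value -0.21). That of BMPR2 ended with library size only (edgeR adjusted p = 0.237), without a filter (0.0513), under DESeq2 (0.118) and without WT replicate 1 (0.549), where its value was -0.09. Without WT replicate 2 the BMPR2 value was -0.27.

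ACVR1, a type I receptor used by BMPs, had 49.2 and 46.9 CPM in TMEM9 KD, against 65.0 and 59.3 CPM in WT (log2 fold change -0.37). ACVR2A, a type II receptor of activins and BMPs, had 10.6 and 7.68 CPM in TMEM9 KD, against 12.9 and 13.2 CPM in WT (-0.52). ACVR2A shares 430 bases of exon with ORC4 on the other strand, and its call ended under DESeq2 (adjusted p = 0.081) and without TMEM9_KD replicate 2, when the value was -0.31 (edgeR adjusted p = 0.112). ACVR1B, a type I receptor of activin, had 7.64 and 7.45 CPM in TMEM9 KD and 8.43 and 7.51 CPM in WT, with overlapping groups (-0.08, SE 0.178). ACVR2B, a second type II receptor, had 3.91 and 3.44 CPM in TMEM9 KD and 3.75 and 2.06 CPM in WT (0.36, SE 0.281), again with overlap.

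The SMADs carry the signal to the nucleus. Of the 7 in the member list 3 passed the threshold, each with a change of less than 1.5-fold. That is 42.9%, against 57.7% of all genes. SMAD2 had 193 and 185 CPM in TMEM9 KD, against 152 and 156 CPM in WT (log2 fold change 0.30). SMAD3, like SMAD2 a transducer of TGF-beta and activin, had 180.5 and 188 CPM in TMEM9 KD, against 157 and 159 CPM in WT (0.22). Its call ended without WT replicate 1 (edgeR adjusted p = 0.11, value 0.20) and without WT replicate 2 (0.0812, value 0.22). SMAD5, a transducer of BMPs, had 108 and 91.9 CPM in TMEM9 KD, against 114 and 117 CPM in WT (-0.21). The TMEM9 KD libraries of SMAD5 lay further from each other than TMEM9_KD replicate 1 lay from either WT library, and its call ended in 5 alternatives beside the 1.5-fold test. These were library size only (edgeR adjusted p = 0.0993), DESeq2 (0.0554), and leaving out TMEM9_KD replicate 2 (0.146, value -0.10), WT replicate 1 (0.0726) or WT replicate 2 (0.155). Without TMEM9_KD replicate 1 the value was -0.32.

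The other 4 SMADs of the member list did not pass the threshold. SMAD1, also a BMP transducer, had 32.1 and 30.4 CPM in TMEM9 KD and 33.9 and 32.5 CPM in WT (log2 fold change -0.09, SE 0.0995). SMAD4, the shared partner, had 70.6 and 68.2 CPM in TMEM9 KD and 73.1 and 72.9 CPM in WT (-0.07, SE 0.0764). The inhibitory SMAD6, which mainly limits BMP signals, had 13.2 and 11.1 CPM in TMEM9 KD and 13.6 and 14.2 CPM in WT (-0.20, SE 0.144). SMAD7, which limits TGF-beta and BMP signals and is itself a target of both, had 19.2 and 21.8 CPM in TMEM9 KD and 23.3 and 24.8 CPM in WT (-0.23, SE 0.116, edgeR adjusted p = 0.08). Without TMEM9_KD replicate 2, SMAD7 was called lower at -0.33 (edgeR adjusted p = 0.0217). In each of these 4 genes both TMEM9 KD values lay under both WT values, by small margins. The groups did not overlap in 77.6% of all genes tested, in either direction.

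All 3 testable extracellular antagonists of the member list were higher in TMEM9 KD by more than 2-fold. Over all genes 7.24% were called higher by at least 2-fold. NOG, or noggin, which binds BMPs, had 1506 and 1719 counts in TMEM9 KD, against 209 and 279 in WT. Its level was 92.0 and 98.5 CPM in TMEM9 KD, against 14.0 and 15.5 CPM in WT (log2 fold change 2.69, SE 0.0942, edgeR adjusted p = 3.56e-45), or 6.46 times the WT mean. FSTL3, which binds activins and myostatin, had 89.9 and 103 CPM in TMEM9 KD, against 27.3 and 26.7 CPM in WT (1.84, SE 0.0861, adjusted p = 1.55e-35). FST, or follistatin, which neutralises activins, had 4.76 and 5.50 CPM in TMEM9 KD, against 1.20 and 0.668 CPM in WT (2.48, SE 0.33, adjusted p = 2.53e-10). In all 3 the lowest TMEM9 KD library was more than 3 times the highest WT library. GREM1, a BMP antagonist, had 4 and 1 counts in TMEM9 KD and 0 and 2 in WT, too few to test.

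The upstream sequences of FST and FSTL3, which rose, and of the ID genes, which fell, are shown to set both groups side by side. NOG is not shown. They are the 250 bases before the RefSeq start of each gene in GRCh38.p14, in the gene's own 5′ to 3′ direction. Capitals mark CAGAC, a form of the short SMAD-binding element, GGCGCC, a GC-rich element bound by BMP SMADs, and TATAAA, the TATA box, on either strand. The FST stretch lies at chr5:53480379-53480628 (+ strand) and FSTL3 at chr19:676142-676391 (+ strand).
FST: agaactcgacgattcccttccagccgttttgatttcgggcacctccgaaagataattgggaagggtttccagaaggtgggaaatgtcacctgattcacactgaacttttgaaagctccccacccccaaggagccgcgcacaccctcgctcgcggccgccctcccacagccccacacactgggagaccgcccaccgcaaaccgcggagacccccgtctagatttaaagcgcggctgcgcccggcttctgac
FSTL3: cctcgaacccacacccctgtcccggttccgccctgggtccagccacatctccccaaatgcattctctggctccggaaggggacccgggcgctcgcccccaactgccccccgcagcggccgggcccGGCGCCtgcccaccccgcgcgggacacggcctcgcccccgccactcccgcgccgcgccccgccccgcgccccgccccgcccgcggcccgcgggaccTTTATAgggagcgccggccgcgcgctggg
The FSTL3 stretch held 1 GGCGCC, from 125 to 120 bases before the start, and 1 TATAAA on the reverse strand, from 29 to 24 bases before it. The FST stretch held none of the 3 motifs. Of 35093 promoter windows of the same length, 16.4% held GGCGCC, 38.0% held CAGAC and 10.7% held TATAAA. These matches describe letters only.

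**Figure D2:**
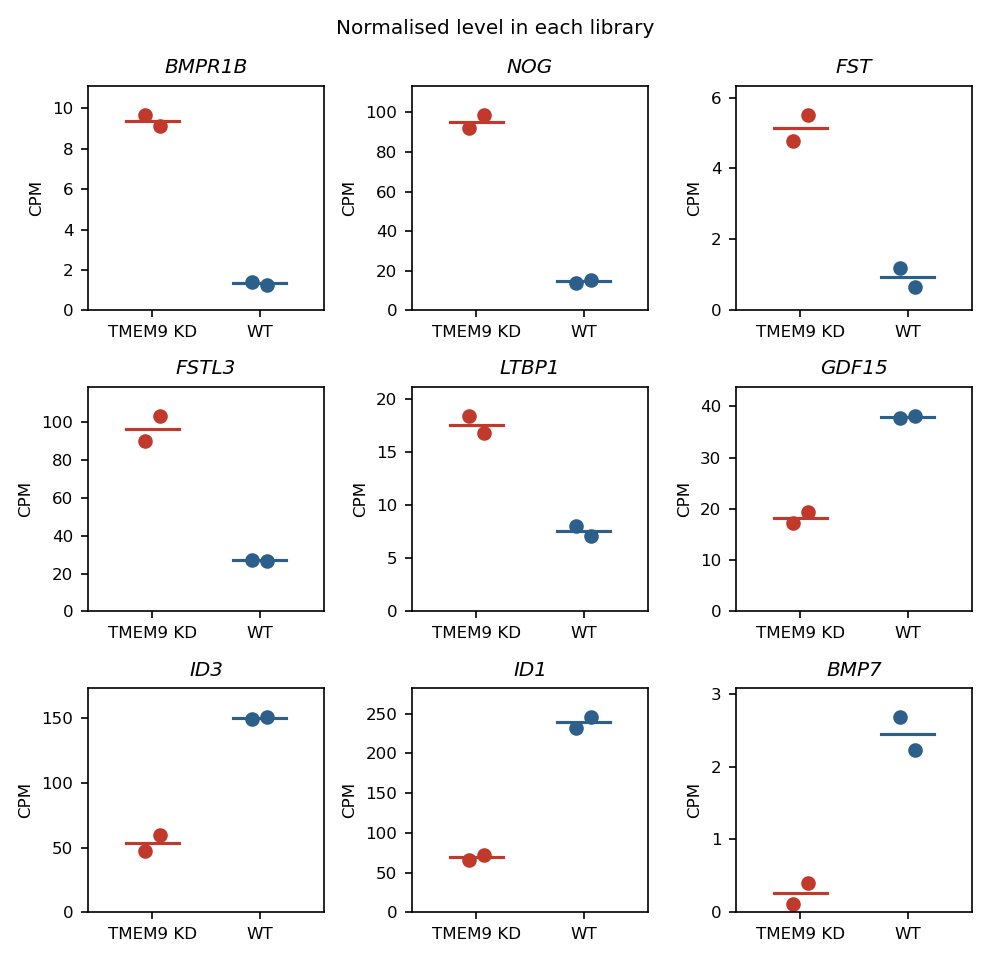
CPM (y axis, from 0) of the 9 members called with a change of at least 2-fold, in each TMEM9 KD library (red, left) and each WT library (blue, right). Points are libraries and lines are means of 2. In every panel the groups do not overlap, and the panels run from BMPR1B (log2 fold change 2.80) to BMP7 (-3.16).

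Inhibitors inside the cell and at the membrane went both ways by less than 2-fold. SMURF2, a ubiquitin ligase that marks receptors and SMADs for turnover, had 54.7 and 53.3 CPM in TMEM9 KD, against 33.7 and 34.8 CPM in WT (log2 fold change 0.66). It shares 167 bases of exon with CEP95 on the other strand. SMURF1, its close relative, had 55.1 and 54.1 CPM in TMEM9 KD and 49.8 and 51.7 CPM in WT (0.10, SE 0.0837), and shares 735 bases of exon with TRRAP on the other strand. SMURF1 did not pass the threshold although its groups did not overlap. BAMBI, a receptor-like protein that lacks the kinase and dampens signals, had 6.47 and 6.53 CPM in TMEM9 KD, against 4.88 and 4.34 CPM in WT (0.50). The BAMBI call had an edgeR adjusted p of 0.0353. It ended without a filter (0.0512), under DESeq2 (0.258), without TMEM9_KD replicate 1 (0.0557) or 2 (0.0755), and without WT replicate 1 (0.0666) or 2 (0.219).

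The co-repressors of SMADs did not rise. SKI had 116 and 131 CPM in TMEM9 KD and 126 and 123 CPM in WT, with overlap and a log2 fold change of -0.01 (SE 0.068). The sign of SKI turned with library size only (0.06) and without TMEM9_KD replicate 1 (0.08). SKIL, a related co-repressor and a TGF-beta target, had 80.3 and 71.5 CPM in TMEM9 KD, against 85.7 and 86.4 CPM in WT (-0.18). Its call ended with library size only (edgeR adjusted p = 0.211), under DESeq2 (0.116), and without TMEM9_KD replicate 2 (0.184, value -0.11), WT replicate 1 (0.165) or WT replicate 2 (0.197).

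The ID genes encode helix-loop-helix proteins without a DNA-binding part, which hold other transcription factors off DNA. ID1 had 1083 and 1259 counts in TMEM9 KD, against 3475 and 4411 in WT. Its level was 66.2 and 72.1 CPM in TMEM9 KD, against 232 and 245 CPM in WT (log2 fold change -1.79, SE 0.0676, edgeR adjusted p = 1.25e-42), or 28.9% of the WT mean. ID3 had 47.2 and 59.3 CPM in TMEM9 KD, against 149 and 150.4 CPM in WT (-1.49, SE 0.0757, adjusted p = 6.36e-33), or 35.6% of the WT mean. ID2 had 24.7 and 24.2 CPM in TMEM9 KD, against 40.5 and 44.6 CPM in WT (-0.80), or 57.6% of the WT mean. All 3 fell in both TMEM9 KD libraries, ID1 and ID3 by over 2-fold and ID2 by less. Over all genes 29.0% were called lower, and 10.1% lower by at least 2-fold. ID4 had 0 counts in both TMEM9 KD libraries and 0 and 3 in WT, too few to test; a count of 0 allows up to 3 counts. TGFBI, a matrix protein named for its induction by TGF-beta, had 1057 and 1095 CPM in TMEM9 KD, against 1281 and 1290 CPM in WT (-0.26, SE 0.0496).

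The ID stretches come from the same table and build, with the same capitals. The ID1 stretch lies at chr20:31605039-31605288 (+ strand), ID2 at chr2:8681806-8682055 (+ strand) and ID3 at chr1:23559502-23559751 (- strand).
ID1: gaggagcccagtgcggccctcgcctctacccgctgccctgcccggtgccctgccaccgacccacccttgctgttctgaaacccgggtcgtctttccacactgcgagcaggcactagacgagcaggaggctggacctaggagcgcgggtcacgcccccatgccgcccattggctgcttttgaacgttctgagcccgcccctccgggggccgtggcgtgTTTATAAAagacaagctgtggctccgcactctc
ID2: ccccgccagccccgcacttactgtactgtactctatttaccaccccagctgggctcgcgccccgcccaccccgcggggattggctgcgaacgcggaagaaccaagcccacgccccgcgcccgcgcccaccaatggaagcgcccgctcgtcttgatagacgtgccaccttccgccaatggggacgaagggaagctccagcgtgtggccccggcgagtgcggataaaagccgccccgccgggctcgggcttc
ID3: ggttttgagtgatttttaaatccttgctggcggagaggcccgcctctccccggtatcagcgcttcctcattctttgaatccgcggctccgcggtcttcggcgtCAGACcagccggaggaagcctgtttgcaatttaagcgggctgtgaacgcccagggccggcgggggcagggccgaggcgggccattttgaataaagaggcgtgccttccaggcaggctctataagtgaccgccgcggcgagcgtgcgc
The ID1 stretch held TATAAA on both strands, overlapping, from 33 to 26 bases before the start. ID3 held 1 CAGAC, from 147 to 143 bases before the start, and ID2 held none of the 3 motifs. GGCGCC was in none of the 3 ID stretches.

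Levels were compared between genes per kilobase of annotated exon, an approximate scale because the transcripts in use are not known. In WT the highest members were ID1 (194 CPM per kilobase), TGFBI (164.5), TGFBR2 (159), ID3 (83.2) and TGFB1 (77.5). In TMEM9 KD the order was TGFBI (138), TGFBR2 (98.5), TGFB1 (57.1), ID1 (56.1) and NOG (50.3). NOG was 5 in rank in TMEM9 KD and 19 in WT, on a level of 7.80 CPM per kilobase in WT. FSTL3 was 7 in rank in TMEM9 KD (31.5 CPM per kilobase) and 16 in WT (8.80). TGFB1 and ID1 in TMEM9 KD differ by less than the SD of either and have no order between them on this scale.

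**Figure D3:**
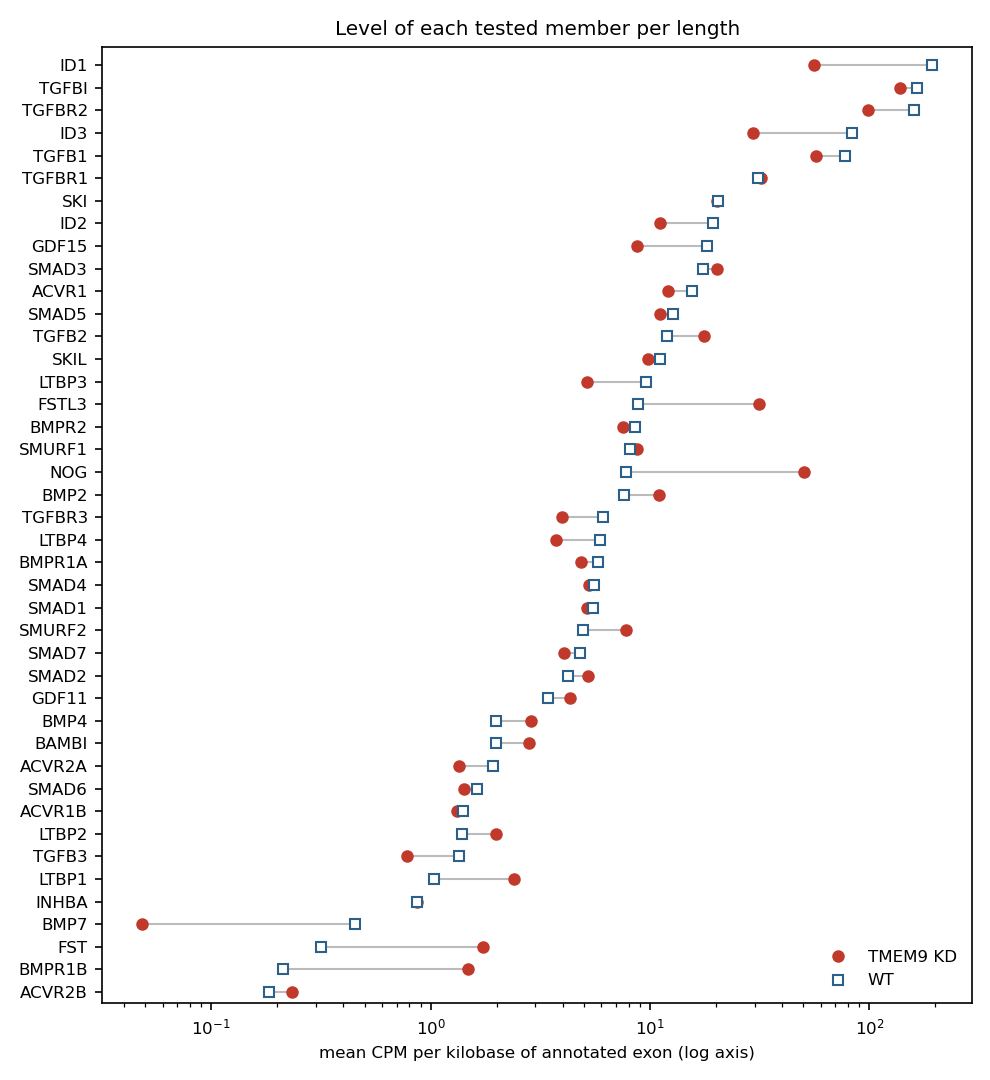
Mean CPM per kilobase of annotated exon (x axis, log scale) of the 42 tested members in TMEM9 KD (red circles) and WT (blue squares), ordered by the WT level; the grey line joins the groups of a gene. NOG and FSTL3 lie far to the right of their WT level, at 50.3 and 31.5 CPM per kilobase, and ID1 and ID3 to the left of it, at 56.1 and 29.6.

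Other genes of the pathway were taken from 8 lists drawn up by role, with earlier results of these data known. Their shares and medians beside those of all genes are therefore descriptive only. Of 127 genes, 125 were matched and 84 tested, of which 23 were higher and 38 lower. That is 72.6%, against 57.7% of all genes. At least 2-fold calls numbered 24 (7 higher, 17 lower), or 28.6%, against 17.4% of all genes. The median log2 fold change was -0.18, against 0.01 over all genes.

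Of the other extracellular antagonists, 1 of 6 tested was higher and 4 were lower (median -0.65). That is 83.3% called, against 57.7% of all genes. SOST, or sclerostin, which was first grouped with BMP antagonists and is known mainly for blocking Wnt co-receptors, had 10.8 and 9.45 CPM in TMEM9 KD, against 77.7 and 85.2 CPM in WT (log2 fold change -3.01). BMPER had 2.20 and 2.29 CPM in TMEM9 KD, against 6.09 and 6.29 CPM in WT (-1.46). NBL1, of the DAN family, had a log2 fold change of -0.87 and DCN, a proteoglycan that binds TGF-beta, one of 0.75. The NBL1 call ended under DESeq2 (adjusted p = 0.13), without TMEM9_KD replicate 2 (edgeR adjusted p = 0.0658) and without WT replicate 1 (0.069). The DCN call ended under DESeq2 (adjusted p = 0.247) and without any 1 of the 4 libraries (edgeR adjusted p from 0.0842 to 0.138).

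Among other receptors and co-receptors, 4 were tested. NEO1, or neogenin, a receptor for the RGM proteins, had 5.86 and 5.39 CPM in TMEM9 KD, against 33.7 and 31.4 CPM in WT (log2 fold change -2.53). RGMB, a BMP co-receptor that binds neogenin, went the other way, with 87.0 and 85.7 CPM in TMEM9 KD, against 33.7 and 40.7 CPM in WT (1.21). Only BMP8B of 3 other ligands tested was called (0.60), and its call ended under DESeq2 (adjusted p = 0.247), without TMEM9_KD replicate 2 (edgeR adjusted p = 0.223), and without WT replicate 1 (0.144) or 2 (0.0864).

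Genes of latency and activation were 3 higher and 3 lower of 7 (85.7% called, against 57.7% of all genes). THBS1, which can activate latent TGF-beta, had 516 and 561 CPM in TMEM9 KD, against 241.5 and 263.5 CPM in WT (log2 fold change 1.09). ITGAV, the alpha chain of integrins that release latent TGF-beta, had 172 and 159 CPM in TMEM9 KD, against 323 and 319 CPM in WT (-0.96). BMP1, a matrix protease and not a ligand despite its name, had a value of -0.68 and the convertase PCSK6 one of 0.42.

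Of 13 transducers and cofactors, 4 were higher and 5 lower (69.2% called, against 57.7% of all genes). SMAD9, which like SMAD1 and SMAD5 carries BMP signals, had 1.34 and 1.09 CPM in TMEM9 KD, against 4.68 and 3.62 CPM in WT (log2 fold change -1.76). DAB2, an endocytic adaptor linked to TGF-beta receptors, had 209 and 216 CPM in TMEM9 KD, against 70.9 and 70.7 CPM in WT (1.58). TAB2, an adaptor of the kinase TAK1, was at -0.67 and the co-activator CREBBP at 0.63. Of 17 genes of turnover and inhibition, 3 were higher and 5 lower (47.1% called). These were led by PPP1R15A, a phosphatase subunit (1.48), the ubiquitin ligases NEDD4L (0.98) and WWP1 (-0.60), and TOB1, an antiproliferative protein (-0.59).

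Known targets were mostly lower, in lists drawn up with earlier results of these data known. Of 26 TGF-beta targets tested, 7 rose and 15 fell (84.6% called, median -0.57), and 13 changed at least 2-fold, 2 upward and 11 downward. Over all genes 57.7% were called, 28.7% higher and 29.0% lower, and 17.4% at least 2-fold. The largest were decreases, in the collagen gene COL3A1 (27.7 and 34.5 CPM in TMEM9 KD, against 947 and 966 CPM in WT), ANGPTL4, the protease gene ADAM19 and PTHLH, with log2 fold changes of -4.94, -3.78, -3.20 and -2.85. PMEPA1, a feedback inhibitor induced by TGF-beta that was listed with turnover and inhibition, had 100.5 CPM in TMEM9 KD and 90.5 CPM in WT (0.15, SE 0.0723, edgeR adjusted p = 0.0595) and did not pass the threshold. PMEPA1 was chosen after its values were seen.

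Of 8 BMP targets tested, 3 were higher and 5 lower (median -0.63, also with RUNX3 at its bound). Over all genes 28.7% were called higher and 29.0% lower. RUNX3, a transcription factor, had 0 counts in both TMEM9 KD libraries, against 123 and 146 in WT. Set at a floor of 3 counts for both TMEM9 KD libraries together, it was at least 92.2-fold lower. HEY1 had 2.08 and 2.92 CPM in TMEM9 KD, against 7.83 and 7.68 CPM in WT (log2 fold change -1.62). MSX2 had 1.83 and 3.55 CPM in TMEM9 KD, against 5.62 and 5.17 CPM in WT (-0.99), with values of -0.59 without TMEM9_KD replicate 1 and -1.56 without replicate 2. TNFRSF11B, or osteoprotegerin, had 16.3 and 12.7 CPM in TMEM9 KD, against 4.28 and 3.34 CPM in WT (1.94).

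**Figure D4:**
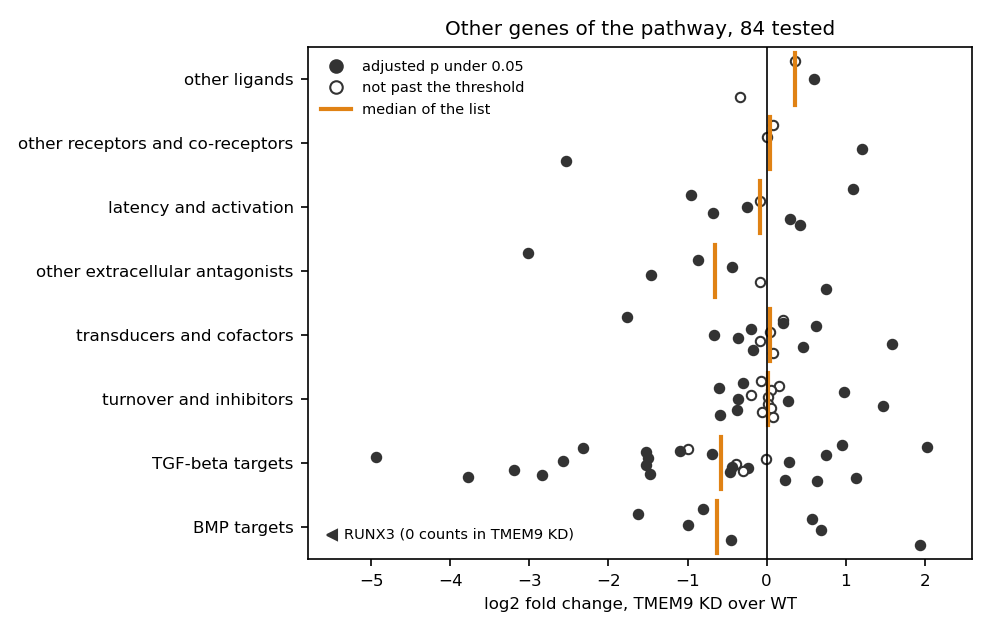
Log2 fold change of TMEM9 KD over WT (x axis) for 84 tested genes of the 8 other pathway lists, 1 point a gene; filled points passed an adjusted p of 0.05 and orange lines are list medians. The medians of TGF-beta targets (-0.57) and BMP targets (-0.63) lie left of 0; RUNX3, with 0 counts in TMEM9 KD, is drawn as an arrow at the edge.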

How the data were processed

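For each of the 4 libraries the authors deposited raw counts by Ensembl gene. Libraries were made by a standard Illumina procedure from total RNA purified with a column kit, per the labels' protocols. Bowtie 0.12.2, CASAVA and 2 builds (mm8 and hg19, with no roles) appear in the submitters' processing notes. No source at hand states the counting tool, the annotation or the use of strand. Symbols came from a table of Ensembl IDs and GENCODE 29, which found 45342 of 48162, and exon lengths and overlaps from GENCODE 29 (GRCh38, not the build of the counts, so no coordinates are given from it). Promoter sequences are RefSeq's, GRCh38.p14, and 41 of the 45 members matched.

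Genes were tested with edgeR 4.0.16 in R 4.3.3 (quasi-likelihood F test, TMM, filterByExpr with minimum count 10 and minimum total 15, group as the only term), leaving 2 residual degrees of freedom. SE was taken as |log2 fold change| divided by √F. The common biological coefficient of variation was 0.0498. The fit was tested on simulated counts. Counts of the 2 libraries of a group differed by more than sampling noise (chi-square per degree of freedom 4.82 for TMEM9 KD and 2.04 for WT), so the libraries were not counted as 1 and were treated as separate replicates. Such spread can also come from library preparation. Alternatives used DESeq2 1.42.0, limma 3.58.1, other scalings and filters, a test against 1.5-fold, the replicate number as a block, and the omission of single libraries.

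The members, roles and lists were chosen with earlier results of these data known. By the rule for named genes, members with a mean of at least 1 CPM in either group are given in each library, and from each other list up to 4 called genes, those that changed most among genes averaging 1 CPM or more. GDF2, GDF10 and PECAM1 were not analysed here. Floors cover counting error only.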

Additional observations from a re-analysis of the deposited data

How the results depend on the processing

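Counts of called members kept within 1.5 times of the reported 14 higher and 18 lower under 12 of the 13 alternatives. They came to 5 and 7 in the test against 1.5-fold, where other pathway genes came to 10 higher and 19 lower and all genes to 1111 higher and 1692 lower; that test asks for a larger change. Leaving out 1 library each gave 11 to 14 members higher and 14 to 18 lower, 17 to 24 other pathway genes higher and 34 to 40 lower, and 3172 to 4173 of all genes higher and 3450 to 4405 lower. Of the 32 called members, 12 kept their call under every alternative that tested them, among them all 9 with a change of at least 2-fold.

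Signs turned only for members that had not passed the threshold. INHBA was at -0.00094 with DESeq2 size factors, -0.000953 without a filter, -0.00252 under DESeq2, -0.0163 without TMEM9_KD replicate 2 and ranged from -0.0428 without WT replicate 1 to 0.0459 without WT replicate 2. With 1 library left out, TGFBR1 ranged from -0.0383 (TMEM9_KD replicate 1) to 0.139 (TMEM9_KD replicate 2) and ACVR2B from -0.0359 (WT replicate 2) to 0.826 (WT replicate 1). SMAD4 was at 0.000623 with library size only. SKI was at 0.0629 with library size only and ranged from -0.112 without TMEM9_KD replicate 2 to 0.0811 without TMEM9_KD replicate 1.

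Replicate numbers did not pair the samples (correlation of deviations 0.000474, necessarily the same for both pairs with 2 libraries a group). With the replicate block, 14 members were higher and 18 lower, as without it. BMP7, FST, INHBB, GREM1 and ID4 had few counts, and differences there were limited by depth.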
